A study of Mus musculus with 3 samples.

Results

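Open chromatin windows that are poor in G and C and poor in CpG dinucleotides were described here, in a list made by ATAC-seq from mouse molars. ATAC-seq uses the transposase Tn5 to insert sequencing adapters into accessible DNA. A window belonged to this group when its GC content was below 55% and it held at most 3 CpG dinucleotides per 100 steps between neighbouring bases. The rule found 1427 of 13500 windows (10.6%), each 201 bases long and centred on an open region of mm10. It used base composition alone and no position or motif site. Composition is tied to both in the genome, since CpG islands lie at gene starts and the core of the motif is itself made mostly of G and C.

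The cells were taken at postnatal day 7.5 from first molars of C57BL/6 mice, at their apical end, after tamoxifen (1.5 mg per 10 g) at postnatal day 3.5. The mutant group, with 1 library, was Gli1-CreER;Arid1a fl/fl, in which the Cre is driven by Gli1, a target of hedgehog signalling, and tamoxifen lets it delete Arid1a where Gli1 is active. The control group, with 2 libraries, was Arid1a fl/fl without the Cre driver. Both groups carry the floxed alleles, and each library was made from 5000 cells of the digested tissue. The windows are named as a union list in the file headers and carry no value per library, so mutant and control were not compared, no value below has a replicate error, and the depth behind a window is unknown. The sources used here do not say how the list was made, so absence from it does not show closed chromatin.

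In mammals most cytosines of CpG dinucleotides are methylated and mutate readily, so CpG is scarce in the genome outside CpG islands. CpG islands are stretches rich in G, C and CpG that cover the start of most broadly expressed genes. Open chromatin outside islands includes enhancers, which act on genes from a distance, and the promoters of many tissue-restricted genes, some of which carry a TATA box. Plagl1, also called Zac1, is a zinc finger transcription factor that binds G-rich and C-rich sequence and restrains cell proliferation. A motif site here is a sequence match and not a measurement of Plagl1 binding.

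The bases of 47 low-GC, CpG-poor windows could be read, because these windows lay wholly within the 300 bases that RefSeq GRCm38.p6 sequence gives around an annotated gene start. These 300 bases run from 250 before the start to 50 after it. Only windows centred upstream of a start could therefore be read, and windows centred on or downstream of it are not covered. In all 1543 windows of the list with such bases, GC and CpG computed from the letters equalled the deposited values within 1e-05. The examples below were chosen after their values were seen, to show what little CpG looks like at a gene start. Each reads 5′ to 3′ on the strand of its gene and ends before the annotated start. Capitals mark the CCAAT box letters CCAAT, the TATA box letters TATAAA and the 10-base sites of the Plagl1 motif. CCAAT and TATAAA are marked on either strand and at any distance from the start. H2bc8 encodes a core histone (chr13:23571156-23571356, plus strand). Cenpa encodes the histone H3 variant of centromeres (chr5:30666685-30666885, plus strand). Kantr is a long noncoding RNA (chrX:152327508-152327708, minus strand), and Ifitm2 an interferon-induced membrane protein (chr7:140955997-140956197, minus strand). Ccl12 encodes a monocyte chemokine (chr11:82101603-82101803, plus strand). Fam118a (chr15:85042507-85042707, plus strand) and 4931408C20Rik (chr1:26687483-26687683, minus strand) had windows without any CpG.
H2bc8: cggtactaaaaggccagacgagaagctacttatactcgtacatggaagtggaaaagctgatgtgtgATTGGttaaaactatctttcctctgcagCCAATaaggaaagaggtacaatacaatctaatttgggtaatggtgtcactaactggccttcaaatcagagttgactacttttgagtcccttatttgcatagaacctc
Cenpa: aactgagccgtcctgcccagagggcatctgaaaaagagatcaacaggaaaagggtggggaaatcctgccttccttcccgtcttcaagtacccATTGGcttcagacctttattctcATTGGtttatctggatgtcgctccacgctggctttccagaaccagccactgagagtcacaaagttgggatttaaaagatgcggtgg
Kantr: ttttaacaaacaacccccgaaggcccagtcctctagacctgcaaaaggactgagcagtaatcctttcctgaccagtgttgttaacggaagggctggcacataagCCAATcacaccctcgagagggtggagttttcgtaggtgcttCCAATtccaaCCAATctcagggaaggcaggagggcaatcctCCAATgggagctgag
Ifitm2: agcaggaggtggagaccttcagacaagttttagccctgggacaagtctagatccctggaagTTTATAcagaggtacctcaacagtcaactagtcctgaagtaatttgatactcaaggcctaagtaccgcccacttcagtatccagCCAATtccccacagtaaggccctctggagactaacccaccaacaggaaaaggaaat
Ccl12: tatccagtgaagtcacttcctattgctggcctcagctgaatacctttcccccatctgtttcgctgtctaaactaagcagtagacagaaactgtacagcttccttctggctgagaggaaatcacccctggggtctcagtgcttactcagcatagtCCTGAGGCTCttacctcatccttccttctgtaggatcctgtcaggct
Fam118a: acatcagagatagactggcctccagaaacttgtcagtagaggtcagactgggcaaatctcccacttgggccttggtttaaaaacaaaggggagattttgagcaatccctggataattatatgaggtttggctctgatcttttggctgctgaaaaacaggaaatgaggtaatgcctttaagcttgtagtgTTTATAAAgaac
4931408C20Rik: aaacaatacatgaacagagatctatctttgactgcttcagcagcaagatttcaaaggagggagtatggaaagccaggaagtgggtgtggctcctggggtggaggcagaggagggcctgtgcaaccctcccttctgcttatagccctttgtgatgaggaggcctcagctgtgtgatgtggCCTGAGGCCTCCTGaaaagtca
The H2bc8 window had a GC content of 40.3% and 2 CCAAT matches, and the Kantr window 51.7% with 4. The Ccl12 window held 1 Plagl1 site, with a score of 5.56, and that of 4931408C20Rik held 2 that share bases, the better with 6.46.

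Low-GC, CpG-poor windows lay away from gene ends, where the other windows gathered. Of them, 205 (14.4%, exact 95% interval 12.6 to 16.3) had their midpoint within 1 kb of an end of a protein-coding gene, against 8870 of 12073 other windows (73.5%, 72.7 to 74.3). Inside a protein-coding gene, over 1 kb from any end, lay 545 low-GC, CpG-poor windows (38.2%) and 2076 other windows (17.2%). Outside protein-coding genes, over 1 kb from any end, lay 677 (47.4%, 44.8 to 50.1) and 1127 (9.33%, 8.82 to 9.87). In these 3 classes, genes are protein-coding genes only. The odds ratios were 0.0606 near gene ends (95% interval 0.0517 to 0.0707), 2.98 inside genes (2.64 to 3.35) and 8.76 outside genes (7.75 to 9.91). Two-sided Fisher's exact tests, adjusted over 8 shares by the Benjamini-Hochberg method, gave p = 7.75e-69 inside genes and 7.71e-252 outside, and a p too small to be held as a number near gene ends. Windows are not biological replicates and were treated as independent, so such p-values can be too small. The 3 classes make up all windows, so a lower share in 1 class raises the others.

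**Figure D1:**
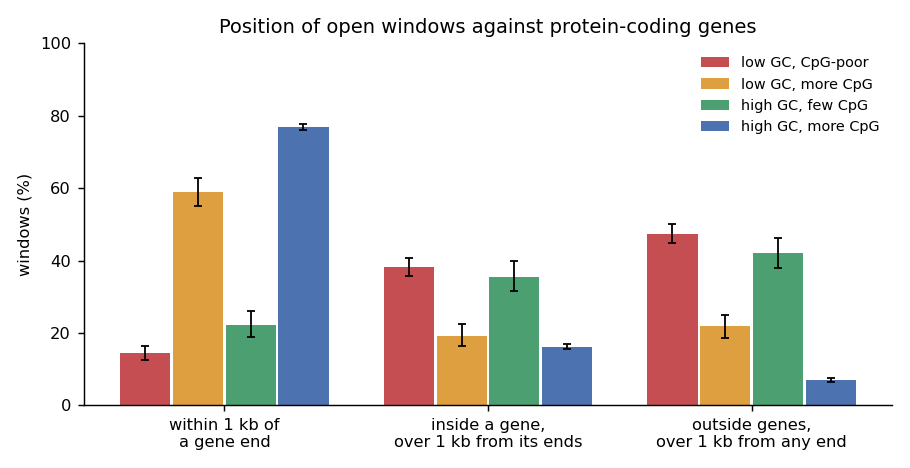
Share of windows (vertical axis, percent) in 3 positions against protein-coding genes, for low-GC, CpG-poor windows and the 3 other classes of windows split at a GC content of 55% and at 3 CpG per 100 steps, with bars for shares and lines for exact 95% intervals. Near gene ends stood 14.4% of low-GC, CpG-poor windows, against 58.9% of windows of the same GC range with more CpG and 76.9% of those high in both. Windows of higher GC with few CpG were closest in value, with 22.3%.

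The direction was the same against the other windows with a GC content below 55%. The median GC content was 48.3% in the low-GC, CpG-poor windows and 52.2% in those others, so GC was not equal. The 662 other windows with a GC content below 55% held more CpG, from 3.5 to 9.5 per 100 steps, and 390 of them (58.9%) lay within 1 kb of a gene end. The odds ratio of low-GC, CpG-poor windows over these was 0.117 (95% interval 0.0939 to 0.146, adjusted Fisher's exact p = 2.44e-93). Inside genes the odds ratio was 2.58 (2.06 to 3.24) and outside genes 3.25 (2.62 to 4.04). Of the 542 windows with few CpG and a GC content of 55% or more, 121 (22.3%, 18.9 to 26.1) lay near a gene end. Inside protein-coding genes lay 35.6% of these 542 windows and outside 42.1%, against 38.2% and 47.4% of the low-GC, CpG-poor windows. The differences from these 542 windows were not tested.

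The distance to genes shows the same order. The median distance to the nearest protein-coding gene end was 18923 bp for low-GC, CpG-poor windows (quartiles 4562 and 57998 bp). It was 203 bp for all other windows (quartiles 84 and 1251 bp), a difference of 18720 bp with a two-sided permutation p of 1e-05, the smallest that 100000 permutations can give. Against the 662 windows of low GC with more CpG, whose median was 303 bp, the difference was 18620 bp with the same permutation p. Within 10 kb of a gene end lay 36.5% of low-GC, CpG-poor windows, and within 100 kb 83.7%.

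**Figure D2:**
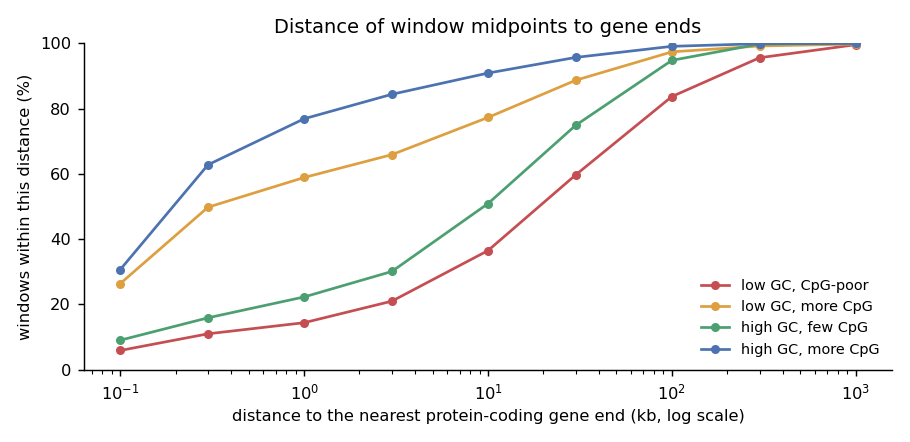
Share of windows (vertical axis, percent) whose midpoint lay within a given distance of a protein-coding gene end (horizontal axis, kb, log scale), for low-GC, CpG-poor windows and the 3 other classes, with points joined by lines. At 10 kb the low-GC, CpG-poor windows had reached 36.5%, and at each distance up to 300 kb they stood below the other classes.

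Because RefSeq promoter entries carry a strand, gene starts could be told from the opposite ends, for chromosomes other than 18, which was not used for this. A window overlapped the 300 bases around a start in 180 of 1367 low-GC, CpG-poor windows (13.2%, exact 95% interval 11.4 to 15.1), and in 6408 of 11747 other windows (54.6%, 53.6 to 55.5). The odds ratio was 0.126 (0.107 to 0.149, adjusted Fisher's exact p = 5.75e-203). Within 1 kb of a finish, and not of a start, lay 28 low-GC, CpG-poor windows (2.05%, 1.37 to 2.95) and 167 others (1.42%, 1.22 to 1.65), a difference that was not tested. Over 100 kb from any listed start lay 169 (12.4%, 10.7 to 14.2) and 518 (4.41%, 4.05 to 4.80). The entries are not complete: 17491 of 21373 protein-coding genes on these chromosomes had one.

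The windows near a start were placed differently around it. Of 236 low-GC, CpG-poor windows within 1 kb of a start, 140 (59.3%, exact 95% interval 52.8 to 65.6) had their midpoint upstream, with a median of -39 bp from the start. Of 8482 other windows, 3002 (35.4%, 34.4 to 36.4) did, with a median of 52 bp. The low-GC windows with more CpG resembled the first group in value, with 241 of 396 (60.9%, 55.9 to 65.7) upstream and a median of -44.5 bp. These shares were computed after the positions were seen and were not tested.

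Many of the genes nearest to these windows were not protein-coding. Among all annotated genes the nearest end belonged to a protein-coding gene for 683 low-GC, CpG-poor windows (47.9%, exact 95% interval 45.2 to 50.5), against 10224 others (84.7%, 84.0 to 85.3). Long noncoding RNA genes were nearest for 449 (31.5%, 29.1 to 33.9), against 1399 (11.6%, 11.0 to 12.2). Pseudogenes were nearest for 200 (14.0%, 12.3 to 15.9), against 173 (1.43%, 1.23 to 1.66). When ends of all annotated genes were counted, 323 low-GC, CpG-poor windows (22.6%) and 9481 others (78.5%) lay within 1 kb of an end. Outside all annotated genes, over 1 kb from any end, lay 490 of 1427 and 625 of 12073, in the same order, an odds ratio of 9.58. Where windows lay inside protein-coding genes, the genes were longer, with a median of 122075 bp for the hosts of low-GC, CpG-poor windows and 53446 bp for those of other windows. Longer genes offer more room for a window, and the counts were not adjusted for length.

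Among themselves the low-GC, CpG-poor windows varied with their CpG. Their GC content ran from 27.4% to 54.7% with a median of 48.3%, and 150 of them (10.5%) held no CpG at all. The share within 1 kb of a gene end was 3.33% in windows without CpG (5 of 150), 11.0% at 1.5 CpG per 100 steps (28 of 254) and 34.6% at 3 (55 of 159). By GC content it was 6.36% below 40% (11 of 173), and 19.6% from 50 to 55% (107 of 547). The rule's own edges were narrow: 57 members stood at its highest GC content of 54.7%, and 57 CpG-poor windows just outside it at 55.2%. At the other edge 159 members held 3 CpG per 100 steps, and 132 low-GC windows just outside held 3.5.

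Just upstream of gene starts, 5 promoter motifs were counted in the windows with known bases, both low-GC, CpG-poor windows and others. The letters CCAAT, bound by the trimeric factor NF-Y, were found on either strand in 27 of the 47 windows with known bases (57.4%, exact 95% interval 42.2 to 71.7). They stood in 568 of 1496 other windows (38.0%, 35.5 to 40.5) and in 9406 of 32851 promoter entries cut to the same length (28.6%). TATAAA, the letters of the TATA box, was found in 6 (12.8%, 4.83 to 25.7) and in 41 others (2.74%, 1.97 to 3.70), and in 8.96% of promoter entries. CCAAT and TATAAA were counted anywhere in the window, whatever their distance from the start. A match is therefore not by itself a CCAAT box or a TATA box. The GC box, GGGCGG, to which Sp1 binds, was found in 7 (14.9%, 6.20 to 28.3), against 1044 others (69.8%, 67.4 to 72.1) and 32.2% of promoter entries. TGANTCA, the letters of AP-1 sites, was found in 2 windows (4.26%) and 35 others (2.34%), and in 5.39% of promoter entries. The E-box CACGTG was found in 3 (6.38%) and 127 others (8.49%), and in 5.47% of promoter entries. All motifs were searched on both strands, matches of different motifs may overlap and are counted for each, TGANTCA and CACGTG read alike on both strands, and the share of each follows base composition, which the rule uses. These are descriptions without a test. Among the 131 windows of low GC with more CpG, CCAAT stood in 81 (61.8%), TATAAA in 13 (9.92%) and the GC box in 45 (34.4%). The intervals for the AP-1 letters (0.52 to 14.5) and the E-box (1.34 to 17.5) in the low-GC, CpG-poor windows covered the values of the other windows.

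**Figure D3:**
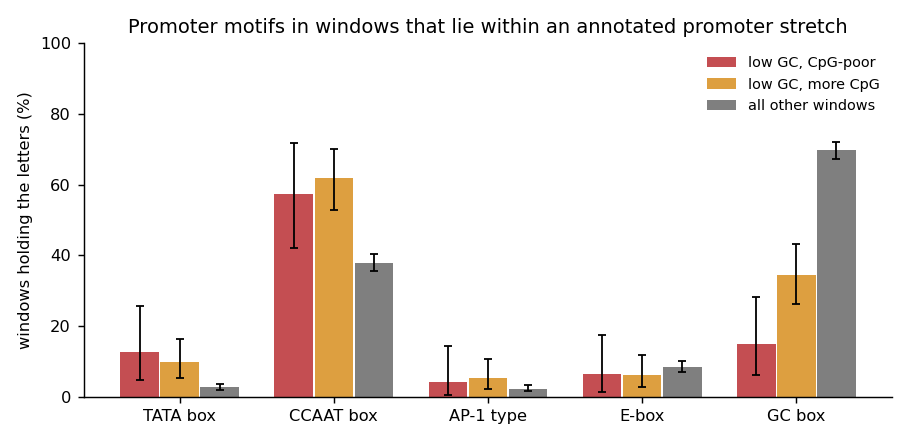
Share of windows (vertical axis, percent) that hold each of 5 promoter motifs on either strand, among windows whose bases lie within an annotated promoter stretch, with exact 95% intervals as lines. This stretch runs from 250 bases before a gene start to 50 after it, so the windows are centred upstream. CCAAT stood in 57.4% of the 47 low-GC, CpG-poor windows, and the GC box in 14.9% of them against 69.8% of the 1496 other windows.

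Single genes at these starts are named here after their values were seen, and stand for no group of genes. Besides H2bc8, the histone gene H2bc11 had such a window, with a GC content of 40.3%, 4 CCAAT matches and 1 Plagl1 site of score 6.72. The zinc finger genes Zfp932 and Zfp975 had 1 CCAAT match each, and Zfp458 none. Cited1, a transcriptional co-regulator, had 1 TATAAA match and 1 CCAAT match. Creb5, a transcription factor of the ATF family, had an AP-1 type match in a window with a GC content of 52.2%.

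At a distance of 10 kb, the low-GC, CpG-poor windows had a neighbouring window somewhat more often than the other windows did. Another window lay within 10 kb of 358 of them (25.1%, exact 95% interval 22.9 to 27.4), against 2456 others (20.3%, 19.6 to 21.1), an odds ratio of 1.31 (1.15 to 1.49, adjusted Fisher's exact p = 5.35e-05). Within 1 kb the counts were 69 (4.84%, 3.78 to 6.08) and 172 (1.42%, 1.22 to 1.65). Within 50 kb the direction turned, with 920 of 1427 and 8016 of 12073. The odds ratio there was 0.918 and did not pass (adjusted Fisher's exact p = 0.168). No 2 windows shared bases. When windows less than 100 kb apart were joined into runs of low-GC, CpG-poor windows, 956 (67.0%) stood alone, 361 (25.3%) in runs of 2 to 4, and 110 (7.71%) in 10 runs of 5 or more. Against windows of low GC with more CpG the odds ratio of a neighbour within 10 kb was 0.857 and did not pass (0.693 to 1.06, adjusted Fisher's exact p = 0.169). The share with such a neighbour was 28.1% in those windows, 27.1% in windows of higher GC with few CpG, and 19.5% in windows high in both.

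The run with the most windows lay on chromosome 1, from 84986274 to 85345712, with 32 low-GC, CpG-poor windows among 36 windows in all. It covers the genes A530032D15Rik, Gm38510 and C130026I21Rik, and 12 of its 32 windows held a Plagl1 site. Close by, from 85481546 to 85625571, 12 windows lay inside genes, nearest to ends of Gm2427, Sp140 and Sp110, and 2 of these held a site. The next largest run lay on chromosome 9 from 3000824 to 3038107, at the proximal end of the assembled chromosome. It held 16 windows in 37284 bp, with a median GC content of 35.3% and no site. Runs of 10 and 8 windows lay on chromosome 8 outside protein-coding genes, from 20513143 to 20612998 and from 20284938 to 20408723, near Gm40469 and Gm15319. Zinc finger genes lay under a pair of runs: 9 windows at Zfp988, Zfp978 and Zfp982 on chromosome 4, and 7 on chromosome 13 from Zfp455 to Zfp874a, where 5 lay near a gene end. On chromosome 17 there were 6 windows nearest to Tcte2 and 5 at the class I histocompatibility genes around H2-T24. On chromosome 14 there were 5 around Gm8126 and Gm8127. The treatment of reads from repeated or duplicated sequence is not stated by the labels or headers, and its part in these runs was not tested.

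The protein-coding genes with the most low-GC, CpG-poor windows, in the gene or within 10 kb of its ends, lay on chromosome 1, at and between its runs. Gm38510 had 13, with 3 other windows. A530032D15Rik had 10, Sp140 9 and Sp110 7, all without another window. Gm7592 had 7, with 1 other window, and C130026I21Rik had 4. The rest of the first 10 were Zfp978 with 5, and Bcas3, Pisd and Tex14 with 4 each. Pisd encodes the mitochondrial phosphatidylserine decarboxylase, and 2 of its 4 windows held a Plagl1 site. These genes share windows where they overlap.

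The windows farthest from protein-coding gene ends lay far outside genes or deep inside long ones. The farthest lay on chromosome 1 from 102628164 to 102628364, with 2137665 bp to an end of Cntnap5b, and held 1 Plagl1 site. The next lay 1862854 bp from Celf4 and 1253322 bp from D3Ertd751e. On chromosome 2, 3 windows between 98662638 and 98667042 lay over 1 Mb from Lrrc4c, a gene for a synaptic adhesion protein, with GC contents of 32.8%, 30.8% and 36.8%. The others of the 10 farthest lay 855265 bp from F2rl3, 636114 bp from Epha7, which encodes an ephrin receptor, or deep inside the neural adhesion gene Lsamp (983979 bp from its end) and the phosphodiesterase gene Pde4d (585335 bp). Of these 10 windows 9 held no Plagl1 site. The treatment of reads from repeated or duplicated sequence is unknown here as well, and its part in these windows was not tested.

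Genes of tooth development, signalling and the cell cycle were counted by whether they had a low-GC, CpG-poor window. Over all 21896 protein-coding genes, 1027 (4.69%) had at least 1 in the gene or within 10 kb of its ends, and 12709 (58%) had another window there. Of the 1027, 711 had both kinds and 316 had low-GC, CpG-poor windows only. Another 515 of these windows could be assigned to no protein-coding gene. The gene lists below are counted beside these shares and were not tested. Neither Plagl1, Arid1a nor Gli1 had such a window, against 1, 4 and 1 windows of other kinds. Nor did any of 26 odontoblast and osteogenic genes, 20 genes of dental mesenchyme and its progenitors, 21 cell cycle inhibitors, 16 AP-1 and immediate early factors, 15 housekeeping genes and 9 pericyte and smooth muscle markers. Other windows stood at 19, 11, 21, 16, 15 and 4 genes of these lists, in the same order.

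The highest share of the lists was that of BMP and TGF-beta signalling, with 7 of 32 genes (21.9%), against 27 of 32 with another window. Smad3, which carries the TGF-beta signal to the nucleus, had 2 low-GC, CpG-poor windows inside the gene and 2 others. The window on chromosome 9 from 63668763 to 63668963 lay 89131 bp downstream of the nearest listed start, had a GC content of 53.7% and no CpG, and held 2 Plagl1 sites with a best score of 7.54. The other, from 63716299 to 63716499, lay 41595 bp downstream and also held 2 sites, the better with 6.81. Tgfb3, a TGF-beta ligand, had 1 such window 238 bp outside a gene end, with a site of score 5.65, and no other window. Id3, a target gene of BMP signalling, had 1 at 8854 bp upstream of its start, with a site of score 5.92. The inhibitory Smad7, the receptor Tgfbr2 and the BMP and activin receptor Acvr1 had 1 each inside the gene, with GC contents of 52.7%, 48.3% and 36.8% and no site. Chosen after its values were seen, the co-receptor Tgfbr3 completes the list.

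In hedgehog signalling 2 of 22 genes (9.09%) had a low-GC, CpG-poor window and 19 of 22 another. Ptch1, the hedgehog receptor and a target of the pathway, had 1 on chromosome 13 from 63566190 to 63566390, inside the gene and at -555 bp from the nearest listed start, with a GC content of 52.2%. Smo, which transduces the signal, had 1 inside the gene 13396 bp downstream of its start, without CpG. Neither held a Plagl1 site. In Wnt signalling 3 of 40 (7.5%) had one: Rnf43, a ubiquitin ligase that removes Wnt receptors, 472 bp upstream of its start; the receptor Lgr6 inside the gene; and the transcription factor Tcf7l1, 77295 bp from its start, with a site of score 6.07. Of 17 genes of FGF signalling, the receptor gene Fgfr1 had 1 such window, 2869 bp outside a gene end.

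Regulators of transcription and chromatin with such a window were counted in the same way. Of 14 Runx, Tead and Nfi factors 2 (14.3%) had such a window. Tead1, a partner of the Hippo effector Yap1, had 1 on chromosome 7 from 112826316 to 112826516, 80368 bp inside the gene, with 3 Plagl1 sites and a best score of 6.44. Nfib had 1 of low GC content, 37.3%, without a site. Of 27 SWI/SNF subunits 3 (11.1%) had one: Dpf2 had 2, at 231 and 2536 bp downstream of its start, the ATPase Smarca2 1 and Bicra 1, none with a site. Of 35 cell cycle drivers, Ccnd3, a G1 cyclin, had 2 and the topoisomerase Top2a 1, also without a site, while all 35 had another window.

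Of the 5 lists of markers of other cell types, 4 had a single gene with such a window and the pericyte list had none. Of 16 dental epithelium markers the enamel matrix gene Ambn had 1, 198 bp upstream of its start, with a GC content of 41.8% and no other window. Of 16 immune markers the Fc receptor chain gene Fcer1g had 1 at 6906 bp outside a gene end, with 3 sites; that window lay nearest to Tomm40l. Vwf, the clotting protein of endothelium, was the only one of 13 endothelial markers, with 2 sites in a window inside the gene. Syp, a synaptic vesicle protein, was the only one of 15 glial and neuronal markers. In a union list over whole digests, open chromatin of a rare cell type and that of the main one cannot be told apart.

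Plagl1 motif sites were found in 394 low-GC, CpG-poor windows (27.6%, exact 95% interval 25.3 to 30), fewer than in the other windows, of which 4050 held one (33.5%, 32.7 to 34.4). The odds ratio was 0.756 (0.667 to 0.855, adjusted Fisher's exact p = 6.81e-06). The core of the motif is made mostly of G and C, and the rule uses GC and CpG. The tests of this share, here and below, therefore cannot separate motif sites from base composition, and nothing about Plagl1 is read from them. The direction turned against the 662 windows of low GC with more CpG. Of these 132 held a site (19.9%, 17.0 to 23.2), and the odds ratio was 1.53 (1.22 to 1.93, adjusted Fisher's exact p = 0.000238). Within ranges of GC, 1 of 4 passed the test. From 50 to 55% GC the shares were 34.4% (188 of 547) and 21.1% (102 of 483), with an odds ratio of 1.95 (1.46 to 2.62, Fisher's exact p adjusted over 4 ranges of GC = 9.06e-06). From 45 to 50% they were 28.7% (129 of 450) and 19.7% (26 of 132), which did not pass (adjusted Fisher's exact p = 0.0878). From 40 to 45% they were 19.1% (49 of 257) and 10.8% (4 of 37, adjusted Fisher's exact p = 0.348), and below 40% GC the comparison windows numbered 10, none with a site (adjusted Fisher's exact p = 0.364).

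**Figure D4:**
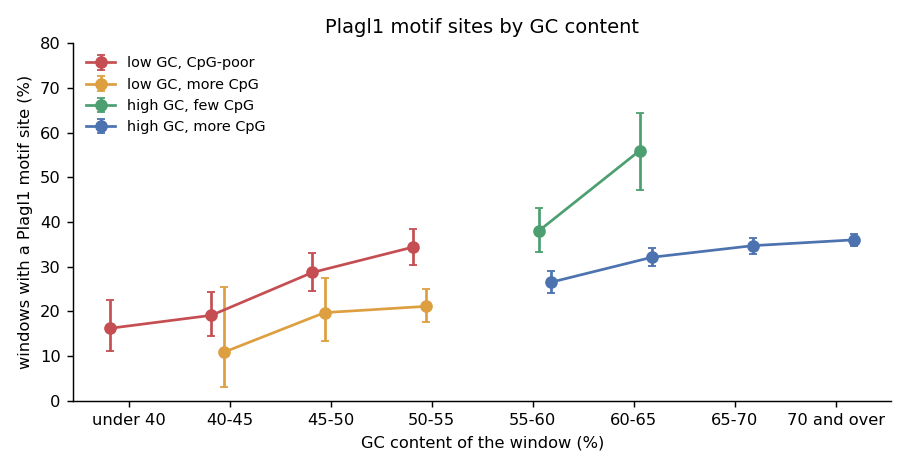
Share of windows with at least 1 Plagl1 motif site (vertical axis, percent) by GC content of the window (horizontal axis, percent), for the 4 classes of windows, with exact 95% intervals as lines and ranges of under 20 windows left out. From 50 to 55% GC, 34.4% of low-GC, CpG-poor windows and 21.1% of windows with more CpG held a site, and above 55% the windows with few CpG again stood above those with more.

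Within the low-GC, CpG-poor windows the share with a site was close between positions: 27.8% near gene ends (57 of 205), 28.3% inside genes (154 of 545) and 27.0% outside (183 of 677), with overlapping intervals.

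Against the sites of all other windows, the sites themselves differed in their bases and not detectably in their score. The 394 windows held 495 sites, or 34.7 per 100 windows, against 5258 sites and 43.6 per 100 in the other windows. Per window, the best score had a median of 6.00 in low-GC, CpG-poor windows and 5.99 in the others, a difference of 0.00739 (two-sided permutation p = 0.641). Position 5 of the motif, counted from 1 at the 5′ end, was A in 297 of 495 sites (60%, exact 95% interval 55.5 to 64.3), and in 2280 of 5258 others (43.4%, 42.0 to 44.7). The odds ratio was 1.96 (1.62 to 2.38, adjusted Fisher's exact p = 2.17e-12). Against sites in low-GC windows with more CpG, of which 57.9% had A there, it was 1.09 (0.740 to 1.60, adjusted Fisher's exact p = 0.706), so the call ended. These tests count sites, and sites of 1 window are not independent, so their p-values can be too small. An A in place of a G also lowers GC content, which the rule uses, so the test cannot separate this base from the rule. At position 2 A made up 50.3% of bases and 32.9% in the other windows, and at position 10 C made up 41.4% and 59.6%. Only 35 sites (7.07%) held a CpG, against 2229 (42.4%), which the rule by itself limits.

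The 10 highest-scoring sites in low-GC, CpG-poor windows are shown by the nearest protein-coding gene, 5′ to 3′ on the motif strand, with positions 4 to 7 of the motif in capitals.
Lzic: aatGGGGccc
Tmem40: taaGGGGccc
Lpin2: catGAGGccc
Ndufv1: catGAGGccc
C87436: catGAGGccc
Smad3: catGAGGccc
Adgre5: taaGAGGccc
Ndufb11: taaGAGGccc
Anxa6: caaGGGGccc
Slc16a14: tatGGGGcca
The first scored 7.59 and lay inside Lzic on chromosome 4, from 149496754 to 149496763. That of Tmem40, with 7.55, lay in a window with 3 sites in all. The sequence with 7.54 was shared by windows near Lpin2, Ndufv1 and C87436 and by the Smad3 window described above. The pair near Adgre5 and Ndufb11 scored 7.48, and Ndufb11, a subunit of complex I, was the only gene of the 10 with the window near its end, at 39 bp. The sites in Anxa6 and near Slc16a14 scored 7.36 and 7.34.

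Windows with 3 or more sites numbered 14 (0.981%, exact 95% interval 0.537 to 1.64), against 189 others (1.57%, 1.35 to 1.80). The 3 with the most lay on chromosome X, nearest to Asmt at distances of 58590 to 135082 bp, from 170736544 to 170813236, with 6, 5 and 5 sites. Their commonest sequence, with a score of 7.20, made up 12 of these 16 sites and is shown with positions 4 to 7 in capitals.
Asmt: tgtGAGGccc
It stood in 3 low-GC, CpG-poor windows alone and gave 24.2 of 1000 sites, against 13 sites in 8 other windows, or 2.47 of 1000. In the window with 6 sites neighbouring sites stood 31 bases apart throughout. The fourth window, with 4 different sites, lay inside the fatty acid transporter gene Slc27a1. The other 10 had 3 each. They lay inside Armc9, Rhobtb2, Frmd4a, Tmem40, Ppfibp2 and Tead1, near the end of Tomm40l, or outside genes nearest to Lyplal1, Lpp and C87436.

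The letters AGGGGGC, which also stand in the core of many sites of the insulator protein CTCF, were held by 44 of 495 sites (8.89%, exact 95% interval 6.53 to 11.7), and by 381 of 5258 others (7.25%, 6.56 to 7.98). The odds ratio of 1.25 (0.879 to 1.74) did not pass (adjusted Fisher's exact p = 0.178). Against sites in low-GC windows with more CpG, where 5 of 152 (3.29%) held them, it was 2.86 (1.11 to 9.43, adjusted Fisher's exact p = 0.0294). Sites of 1 window were counted as independent here too. The versions with a CpG numbered 4 of the 44 and 175 of the 381.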

How the data were processed

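ATAC-seq was made from 3 libraries, and the deposited tables pool them. The submitters' processing notes name Bowtie2 2.3.5, MACS2 2.1.1, cutadapt 1.18, FastQC 0.11.8, bedtools and Picard, and the genome mm10. Per the file headers, the authors ran HOMER annotatePeaks on a union list of peaks, in 201 bases around each centre, with 1 motif and no gene annotation. The deposited GC and CpG values are fractions, turned into percent and CpG per 100 steps here. The deposited score of a site is HOMER's log-odds score, whose log base is not given. All 5753 sites matched between both tables.

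Distances run from window midpoints to both ends of RefSeq GRCm38.p6 genes, by symbol. A window was assigned to genes within 10 kb, and positions count from 1. Shares carry exact Clopper-Pearson intervals for counting error. Shares were tested with Fisher's exact test and Benjamini-Hochberg adjustment over 8 shares at 0.05, and medians with 100000 permutations. Distances were checked on hand-set positions, and odds ratios with Fisher's exact test on simulated data. The permutation of medians was not checked in this way. The members and the 17 gene lists were chosen with earlier results of these data known. The rule named up to 6 genes per list, the 10 genes with most windows, the 10 highest-scoring sites, the 10 farthest windows, windows with 3 or more sites, and Plagl1, Arid1a and Gli1. Alternatives changed the thresholds, distances, gene sets and comparison windows. The analysis used Python 3.11.15, numpy 2.4.6, pandas 2.3.3, scipy 1.17.1, statsmodels 0.14.6, numba 0.67.0 and matplotlib 3.10.9.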

Additional observations from a re-analysis of the deposited data

How the results depend on the processing

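Of 78 values under alternatives, 68 kept their direction and their side of the threshold, including all shares by position and the distance to gene ends. Against other windows of GC below 55% alone, the odds ratio of a motif site turned to 1.53, that of a neighbour within 10 kb to 0.857 and the score difference to -0.000641. There A at position 5 no longer passed (1.09) and AGGGGGC passed (2.86). In a model with GC and CpG the odds ratio of a site was 1.25, but membership is itself set by these values, so nothing is read from it. With the GC limit at 50% the odds ratio of AGGGGGC turned to 0.921 and the score difference to -0.00229. With neighbours counted within 50 kb the odds ratio turned to 0.918. Chosen after seeing the data, leaving out runs of 5 or more low-GC, CpG-poor windows gave a neighbour odds ratio of 1.01, a fall that this one-sided removal of clustered windows builds in. Otherwise the cause was not tested. No paired analysis was possible because no library has values of its own, and no library could be left out for the same reason. Depth is unknown, so the number of windows alone limits each share.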

Other observations

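The share of windows that were low in GC and CpG-poor differed between chromosomes. It was 16.3% on chromosome 1 (132 of 810), 16.1% on chromosome 13 (93 of 578), 15.5% on chromosome 18 (60 of 386) and 13.8% on chromosome 8 (103 of 749). It was 7.20% on chromosome 5 (58 of 806), 7.87% on chromosome 11 (88 of 1118) and 9.55% on chromosome X (36 of 377). Chromosome Y had 4 such windows among 5. The runs described above held 32 and 12 of the windows counted on chromosome 1, 7 on chromosome 13, and 10 and 8 on chromosome 8.

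In 1 low-GC, CpG-poor window, on chromosome 9 from 123872958 to 123873158, the deposited GC content of 47.1% was not a whole number of 201 bases within 0.01. The window lay 11029 bp from Xcr1, a chemokine receptor gene. The mature miRNA mmu-miR-6236 lay within the window on chromosome 9 from 110281209 to 110281409, and was the only entry of the RefSeq miRNA table to overlap a low-GC, CpG-poor window.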
